A study of Mus musculus with 6 samples.

Results

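Cytosolic ribosomal proteins are the proteins of the 80S ribosome, and their genes were followed here in pancreatic islets of diabetic and control mice. The members were all rows marked protein-coding whose symbol begins with Rpl or Rps followed by a number, a stalk letter or the a of Rpsa, with the Rps6k kinases and all symbols containing -ps left out. This gave 87 of 44713 rows. By symbol alone, 52 of these were counted with the large subunit (Rpl) and 35 with the small subunit (Rps), relatives included. Among them are 3 genes of the stalk and 10 paralogs or relatives, while the other 74 encode the common large-subunit (43) and small-subunit (31) proteins. The match by symbol left out ribosomal proteins with other symbols, such as Fau and Gnb2l1 (now Rack1), and took in Rps19bp1, which encodes a protein that binds Rps19 and is no ribosomal protein.

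Islets were taken from 10-week-old males on a normal diet, 3 of them db/db and 3 db/m. The db/db mice carry the Lepr db mutation on both alleles (Lepr-/- in the labels) and are a model of obesity and type 2 diabetes, and the db/m littermates, labelled wild type, carry it on 1 allele and are not diabetic. The study's methods name the BKS strain and the labels C57BL/6. The loss of leptin receptor concerns all tissues of the mouse, so an effect that arises within the islet cannot be told apart from one of the obese, diabetic state. Total RNA was depleted of rRNA and sequenced, and each library is 1 mouse.

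The ribosome reads mRNA and joins amino acids into protein. Its small subunit scans and decodes the mRNA, its large subunit makes the peptide bond, and the stalk proteins Rplp0, Rplp1 and Rplp2 recruit the elongation factors to it. A single copy of nearly every protein enters each ribosome, and unused copies are degraded. In vertebrates the mRNAs of these proteins begin with a C followed by a run of pyrimidines, the 5′ terminal oligopyrimidine (TOP) motif, through which mTOR signalling sets their translation together. The mouse genome also holds many processed pseudogenes of these genes, which are copies of the mRNA without introns.

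The run of pyrimidines is visible at the annotated start of many members. RefSeq start sites on GRCm38.p6 could be matched to 66 of the 87 genes, and a run of at least 8 C or T bases lay on the gene's strand within the 30 bases around the start (15 before and 15 after it) in 25 of these 66 genes, which is 37.9%, against 11.9% of 27025 start windows of all genes. The windows of 6 members, with the longest runs or described in the results, are shown to let the runs be compared, with the longest run in capitals. The windows lie at chr2:39005117-39005146 on the minus strand (Rpl35), chr2:26910792-26910821 on the plus strand (Rpl7a), chr7:109519180-109519209 on the plus strand (Rpl27a), chr14:18270972-18271001 on the minus strand (Rpl15), chr10:128626492-128626521 on the minus strand (Rps26) and chr3:28805493-28805522 on the plus strand (Rpl22l1).
Rpl7a: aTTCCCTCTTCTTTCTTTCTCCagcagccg
Rpl27a: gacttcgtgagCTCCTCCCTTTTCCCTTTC
Rpl35: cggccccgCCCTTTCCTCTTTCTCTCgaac
Rpl15: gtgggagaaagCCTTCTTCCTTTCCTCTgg
Rpl22l1: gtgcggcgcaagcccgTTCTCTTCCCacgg
Rps26: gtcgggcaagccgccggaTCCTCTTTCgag
The runs measured 21 bases in Rpl7a, 19 in Rpl27a, 18 in Rpl35, 17 in Rpl15, 10 in Rpl22l1 and 9 in Rps26. A run in this window is a description of the annotated start and not of the mRNA ends in these islets.

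Library totals lay between 15641797 and 20614531 counts. The libraries are dominated by a few genes, since genes with at least 1% of any library held between 62.0% and 82.1% of the counts. The label islet was checked with marker lists. Markers of the exocrine acinar cells made up 79.5%, 73.8% and 74.1% of the counts in db/db and 56.0%, 71.1% and 72.2% in db/m, while β-cell markers made up 0.200%, 0.728% and 0.560% in db/db and 4.795%, 0.952% and 0.902% in db/m. Transcripts of acinar cells thus outnumbered those of β cells in all 6 libraries. The libraries db/m replicate 1, with the least acinar and the most β-cell counts, and db/db replicate 1, with the reverse, stood apart from the rest, and fewer cells of a type cannot be told apart from less RNA per cell in such bulk samples.

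The 87 genes together took under 1% of every library. Their summed share of all counts was 0.667%, 0.548% and 0.635% in db/db, beside 0.628%, 0.583% and 0.593% in db/m. The ranges overlapped, with 0.617% ± 0.0615 (SD, n = 3) in db/db and 0.601% ± 0.0237 (SD, n = 3) in db/m (exact permutation test, two-sided, p = 0.7). The exact 95% binomial interval of the share in db/db replicate 1 was 0.664% to 0.671%, and that of db/db replicate 2 was 0.545% to 0.552%, so the spread between mice was wider than counting error, which is all that these intervals cover. The small-subunit genes held between 36.4% and 37.5% of the members' counts in all 6 libraries. The balance between both subunits overlapped between the groups.

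On a scale that corrects for the dominant transcripts the picture was less even. Counts relative to library size (CPM) scaled by TMM, which takes most genes as unchanged, gave a summed level of 11039, 5523 and 6918 CPM in db/db and of 3604, 5479 and 6110 CPM in db/m. Only db/db replicates 1 and 3 lay above all db/m libraries, and db/m replicate 1 lay below all others. The means were 7827 ± 2868 CPM (SD, n = 3) in db/db and 5065 ± 1303 CPM (SD, n = 3) in db/m (exact permutation test, two-sided, p = 0.2), and groups of 3 and 3 cannot give a p below 0.1. The TMM factors were 0.605, 0.994 and 0.919 in db/db and 1.75, 1.06 and 0.972 in db/m, so that the extreme values fell to the same 2 libraries that stood apart by their acinar and β-cell counts. The share of the members in the counts left after removing the genes that reach 1% of any library was 3.74%, 2.25% and 2.68% in db/db and 1.65%, 2.22% and 2.35% in db/m. On this scale as well, db/db replicate 2 lay within the range of db/m.

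**Figure D1:**
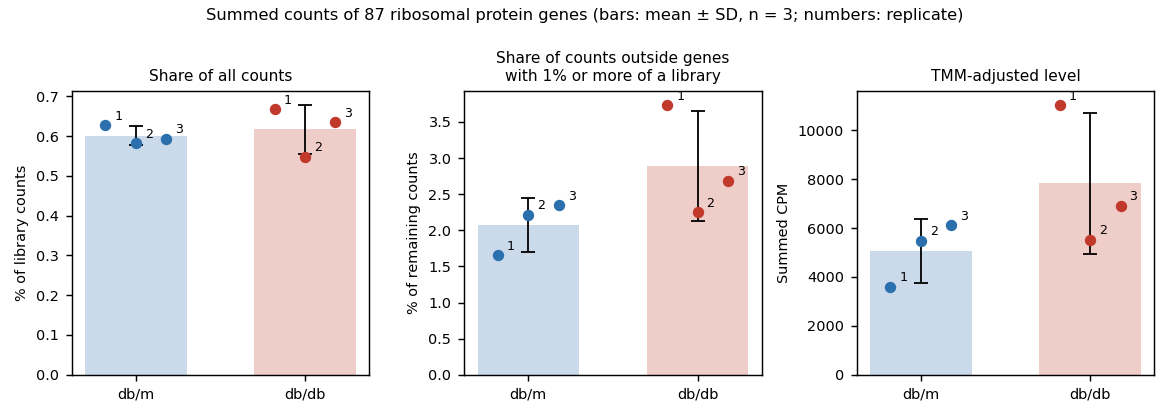
Summed counts of the 87 ribosomal protein genes in each mouse as a share of all counts (left, %), as a share of the counts outside genes with at least 1% of a library (middle, %) and as summed TMM-adjusted CPM (right); bars show the mean and SD of 3 mice, points the mice with their replicate number. The shares of all counts lie between 0.548% and 0.667%, and on the other scales db/db replicate 1 is the highest library and db/m replicate 1 the lowest.

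Counts of single members differed widely. Among the 77 genes other than the paralogs and relatives, the mean count over the 6 libraries ran from 0 (Rps2) to 9370 (Rplp0), with a median of 662. There were 34 genes with a mean of at least 1000 counts and 18 under 100. The 10 members with the most counts held 43.3% of all member counts. Per kb of transcript, using the shortest RefSeq mRNA, Rpl41 stood highest at 10837 counts, followed by Rps14 at 8762 and Rpl35 at 8630, and the median gene had 946 counts per kb. Rpl41 encodes a very short basic peptide of the large subunit, and Rps14 a protein of the small-subunit platform.

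Several core members were nearly without counts although each is needed in the ribosome. Rps2, a protein near the mRNA entry of the small subunit, had 0 counts in all 6 libraries. Rpl17 had 1 to 3 counts per library, Rpl23a 4 to 11, and Rpl3, which lies next to the peptidyl transferase centre, had 12, 1 and 2 counts in db/db and 18, 20 and 12 in db/m. Rows named as pseudogenes of these genes held many more counts. The 2 rows named as pseudogenes of Rpl3 held 2847, 1738 and 2453 counts in db/db and 2420, 2407 and 2202 in db/m, of which Rpl3-ps1 had nearly all. The 9 rows of Rpl17 held a mean of 1800 counts, the 12 rows of Rps2 a mean of 791, the 13 rows of Rpl23a a mean of 477 and the 15 rows of Rpl21 a mean of 1008, against 22.7 counts of Rpl21 itself.

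The pseudogenes with these counts are near-identical to the mRNA. Rpl3-ps1 (chrX:13202518-13203837, plus strand) differed from the Rpl3 mRNA at 2 of 1295 aligned bases, and 90.2% of its 50-base stretches occur unchanged in Rpl3. Rpl23a-ps3 differed from Rpl23a at 1 of 531 bases, Rps27a-ps2 from Rps27a at 1 of 543 bases, and Rpsa-ps10 from Rpsa, the laminin receptor homologue of the small subunit, at 7 of 1028 bases. Rps12-ps3, Rps23-ps, Rpl28-ps1 and Rpl31-ps8 matched their genes at every aligned base. Stretches of 30 bases around 1 differing base are shown for 3 pairs to show how little separates the rows, each as the gene's mRNA and then the pseudogene, with that base in capitals. The pseudogene stretches lie at chrX:13202614-13202643 on the plus strand (Rpl3-ps1), chr8:87048116-87048145 on the plus strand (Rps13-ps1) and chr14:34170756-34170785 on the plus strand (Rpl23a-ps3) of GRCm38.p6.
Rpl3: ggcttcctgcctcgCaagcgcagcagccgg
Rpl3-ps1: ggcttcctgcctcgAaagcgcagcagccgg
Rps13: cgggtgctcccaccTaattggaaatatgag
Rps13-ps1: cgggtgctcccaccCaattggaaatatgag
Rpl23a: ccacaaaaagaagaAgatccgaacgtcacc
Rpl23a-ps3: ccacaaaaagaagaTgatccgaacgtcacc
Whether reads of such pairs were assigned to the right row was not tested, as the reads were not analysed here.

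Counting the pseudogene rows with their gene narrowed the range between members. In all, 286 rows were named as pseudogenes of 61 of the members, and in 18 genes these rows held more counts than the gene itself. These included 13 of the 18 core genes with a mean under 100 counts and 0 of the 34 genes with a mean of at least 1000. After adding the rows, 7 core genes instead of 18 had a mean under 100 counts and the lowest mean was 14.2 (Rps29) instead of 0. The Rpsa family became the second largest after Rplp0, with 622 counts on Rpsa and 8420 on its pseudogene rows. In genes under 100 counts a median of 87.6% of the 50-base stretches of the mRNA was found elsewhere in the genome, against 56.4% in genes from 1000 counts. The ranges overlapped widely, from 28.3% to 100% and from 0% to 94.8%. Over 77 genes the Spearman correlation of this percentage with counts per kb was -0.23. The pseudogene rows held between 19.5 and 22.4 counts per 100 counts of the members in each library, with overlapping groups. Low counts of a member are therefore given below together with its pseudogene rows. Copies listed under other symbols were not added.

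**Figure D2:**
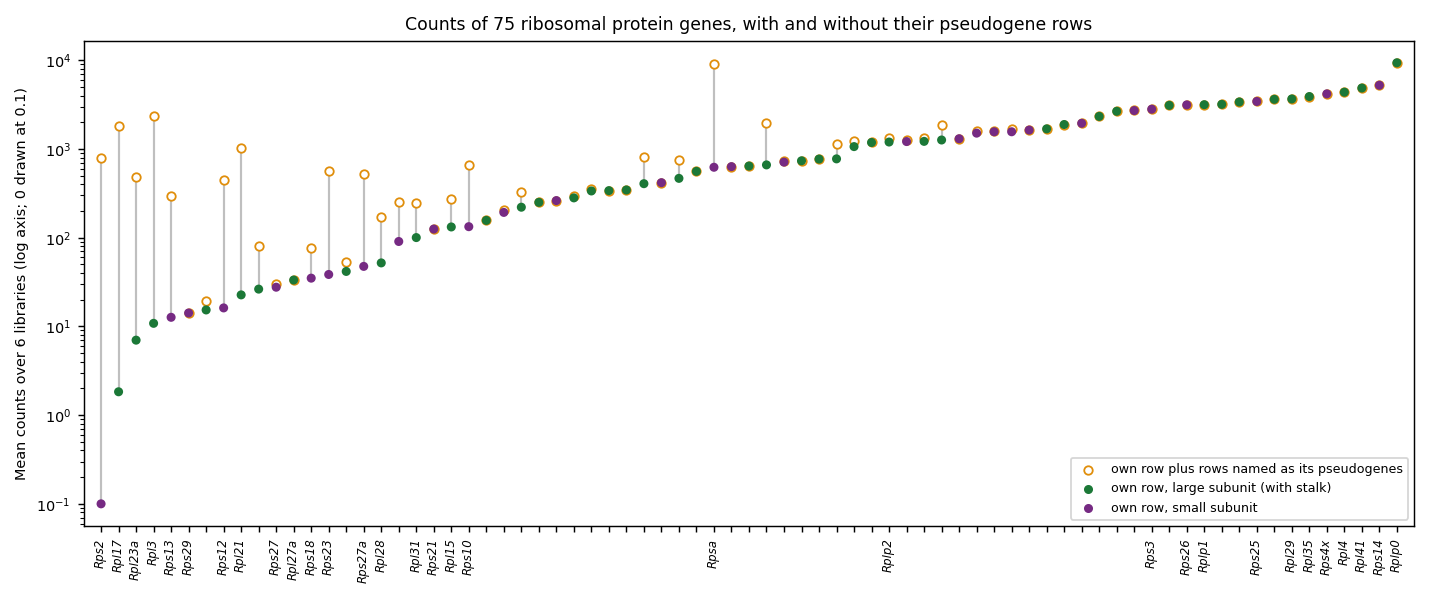
Mean counts over the 6 libraries (log axis, 0 drawn at 0.1) of 75 ribosomal protein genes in order of their own counts, with the names of most of those described in the text; filled points show the gene's own row (green, large subunit; purple, small subunit) and open points the sum with the rows named as its pseudogenes. The filled points range from 0 (Rps2) to 9370 (Rplp0), and Rpl3, Rpl17, Rps2 and Rpl21 move from under 100 counts to between 791 and 2355 with their pseudogene rows.

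Between db/db and db/m, 80 of the 87 genes could be tested, and 0 of the 80 passed the test (edgeR's quasi-likelihood test with TMM factors, adjusted p under 0.05 over 12760 genes), where 0.619% of all tested genes passed, 0.133% being those higher in db/db. The genes left out for low counts were Rpl10l, Rpl17, Rpl23a, Rpl39l, Rpl3l, Rps12l2 and Rps2. With p under 0.05 before adjustment, 8 members were higher in db/db and 0 were lower, beside 5.04% of all tested genes that were higher and 9.89% that were lower at this level. DESeq2 gave 1 gene with an adjusted p under 0.05 and 14 at an unadjusted p under 0.05, all higher in db/db. Of all 12760 genes tested by DESeq2, 707 had an adjusted p under 0.05, and 787 were higher and 1299 lower at an unadjusted p under 0.05. In edgeR, the 8 genes became 2 without db/db replicate 1 (1 higher and 1 lower), beside 486 higher and 1014 lower of all 13735 tested genes. They became 22 without db/db replicate 2 (563 higher and 1295 lower of 13535) and 6 without db/db replicate 3 (386 and 1072 of 13492). Without db/m replicate 1 they were 4 (599 and 805 of 12984). They were 5 without db/m replicate 2 (544 and 956 of 13440) and 14 without db/m replicate 3 (1111 and 1592 of 13640).

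The fold changes of the members lay mostly on the same side. The median log2 fold change (db/db against db/m) was 0.52 over the members and -0.00 over all tested genes. It was positive in 70 of the 80 genes, while 49.9% of all tested genes had a positive value, with a median of 0.53 in the large subunit (43 of 47 positive) and of 0.44 in the small subunit (27 of 33 positive). In the 57 genes with a mean of at least 10 CPM, the median was 0.56 and all 57 values were positive. In the 23 tested genes under 10 CPM the median was 0.22 with 13 positive and 10 negative values. The members share libraries and scaling, so their number does not add replicates.

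The distance of the members to all genes became small without 2 libraries. With library size alone as scaling, the median of all tested genes moved to -0.59 and that of the members to -0.11, so that the members lay above all genes by 0.48, against 0.52 with TMM. A change of scaling moves all genes of a library alike, so this distance was bound to stay about the same. Without db/db replicate 1 the members' median was 0.21, without db/m replicate 1 it was 0.37, and with db/db replicate 1 and db/m replicate 1 both left out it was 0.07, beside 0.02 over all genes, with 45 positive and 35 negative values. A fit with the score of acinar markers as a covariate gave -0.12, beside -0.04 over all genes, with 22 positive and 58 negative values. Between the same groups, 31 of the 33 tested acinar markers had a positive fold change (median 0.69) and 0 of 19 β-cell markers did (median -2.35), and the part of these cell types in the members' fold changes was not tested beyond these fits. With offsets for a trend over transcript length the members' median was 0.20, beside 0.03 over all genes.

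**Figure D3:**
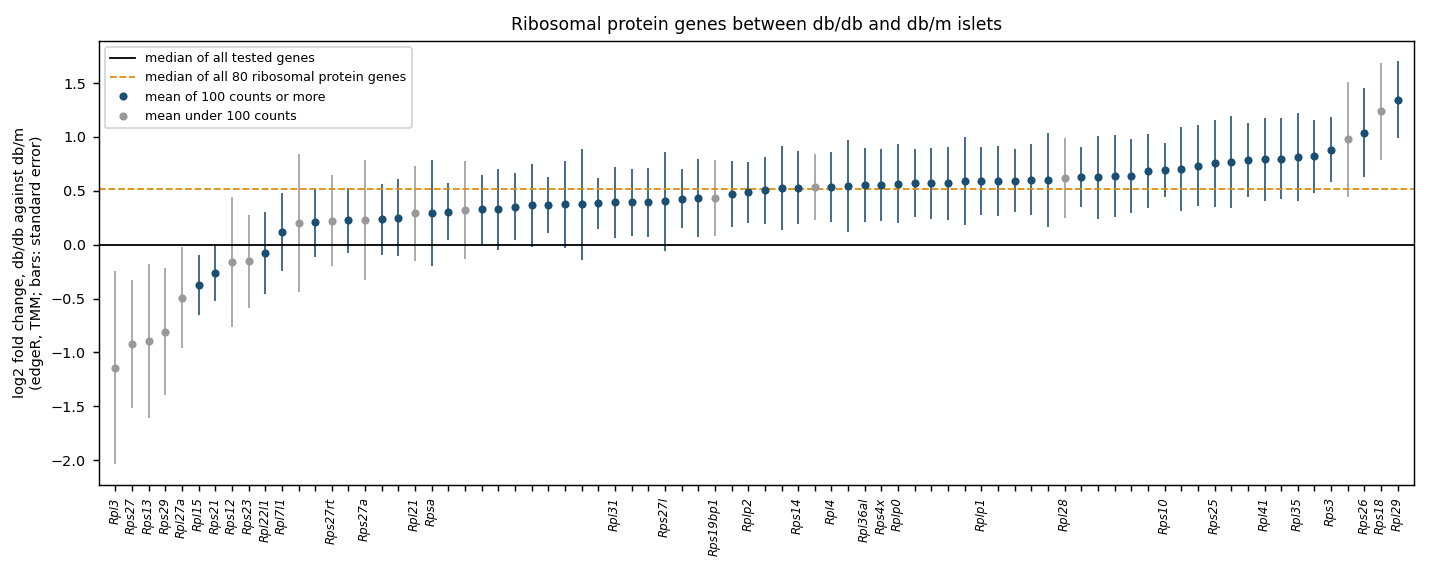
Log2 fold change of 78 of the 80 tested genes between db/db and db/m (edgeR with TMM; bars show the standard error), in order of value, with the names of most of those described in the text; grey points are genes with a mean under 100 counts. The median of all 80 genes (dashed line, 0.52) lies above that of all tested genes (solid line, -0.00), and the negative values are mostly grey.

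**Figure D4:**
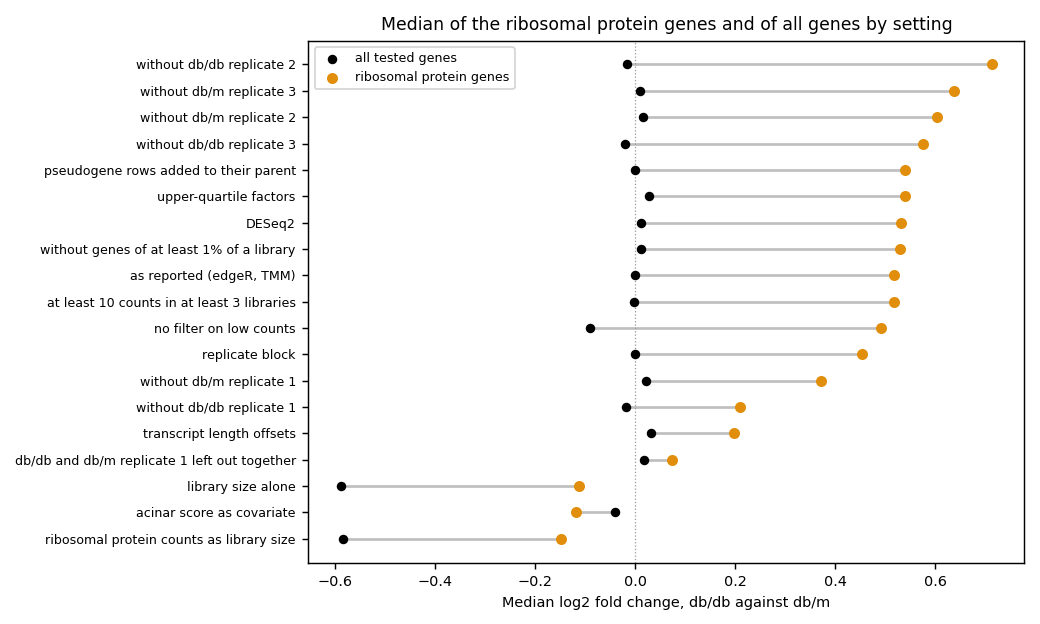
Median log2 fold change (db/db against db/m) of the ribosomal protein genes (orange) and of all tested genes (black) under each setting. Relative to all tested genes, the members' median is lowest with the acinar covariate, at -0.079, and lies at 0.52 with TMM. The value of -0.15 with the members' own counts as library size lies above the -0.58 of all genes in that fit.

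The stalk genes, which bring elongation factors to the ribosome, had fold changes close to the members' median. Rplp0 had 941, 544 and 542 CPM in db/db and 307, 474 and 586 CPM in db/m, with overlapping groups. Its log2 fold change was 0.57 (SE 0.36), that of Rplp1 0.59 (SE 0.31) and that of Rplp2 0.49 (SE 0.28), and none passed the test (edgeR, adjusted p from 0.422 to 0.498). The values were 0.076, 0.16 and 0.14 with replicate 1 of both groups left out. As a share of the members' counts, Rplp0 held 8.53%, 9.85% and 7.83% in db/db and 8.53%, 8.65% and 9.60% in db/m. The part of Rplp0 among the members' counts overlapped between the groups.

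The most abundant genes of the large subunit gave similar values. Rpl41 had a log2 fold change of 0.79 (SE 0.38), Rpl35, which lies near the exit of the peptide tunnel, of 0.81 (SE 0.41), and Rpl4, which lines that tunnel, of 0.54 (SE 0.32), all with overlapping groups. In the small subunit, Rps14 had 0.53 (SE 0.34), Rps4x, the X-linked gene of its protein, 0.56 (SE 0.33) and Rps25 0.75 (SE 0.40). None of these passed the test. With replicate 1 of both groups left out, Rpl41 had 0.33, Rpl35 0.22, Rpl4 0.13 and Rps25 0.10.

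Rpl29 had the smallest p of the members. Rpl29 (chr9:106428889-106431568, plus strand, 4 exons) encodes a protein on the surface of the large subunit that was also described as a heparin-binding protein. It had 434.6, 295.5 and 259.9 CPM in db/db and 83.02, 122.1 and 184.15 CPM in db/m. The lowest db/db value lay above the highest of db/m. Its log2 fold change was 1.35 (SE 0.36), with an adjusted p of 0.124 by edgeR's quasi-likelihood test and of 0.0039 by DESeq2. Over the other settings its distance to the median of all genes stayed between 0.74 and 1.69 with the same sign, with adjusted p between 0.0039 and 0.439, and it was 0.88 with replicate 1 of both groups left out. As a share of the members' counts Rpl29 held 3.94%, 5.35% and 3.76% in db/db and 2.30%, 2.23% and 3.01% in db/m, again without overlap. Of its 50-base stretches 80.9% occur elsewhere in the genome, at 97 other places. Its 5 pseudogene rows held a mean of 1 count beside 3664 on the gene. Rows under other symbols at those places were not examined.

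In the small subunit, Rps26, which contacts mRNA at the exit channel, had 376.0, 199.6 and 219.8 CPM in db/db and 66.2, 135.8 and 185.5 CPM in db/m. The groups did not overlap, and the log2 fold change was 1.04 (SE 0.41, edgeR adjusted p 0.284). Its distance to the median of all genes was 0.17 with the acinar covariate and 0.41 with replicate 1 of both groups left out. Rps3, which sits at the mRNA entry, had 290.1, 169.2 and 207.1 CPM in db/db and 92.4, 121.2 and 148.1 CPM in db/m, also without overlap. Its log2 fold change was 0.88 (SE 0.30, edgeR adjusted p 0.221), and it shares only 3.497% of its stretches with other places in the genome. With replicate 1 of both groups left out the distance of Rps3 to the median of all genes was 0.51.

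Rps10, Rps18, Rps7 and Rpl23 also had an unadjusted p under 0.05. Rps10, a target of ubiquitination on collided ribosomes, had 12.0, 8.55 and 8.61 CPM in db/db and 6.20, 5.94 and 5.85 CPM in db/m, without overlap, and a log2 fold change of 0.69 (SE 0.25). With the 4 pseudogene rows of Rps10 added the value was 0.81. Rps18, of the small-subunit head, had 50, 30 and 51 counts in db/db and 27, 25 and 27 in db/m, with a log2 fold change of 1.24 (SE 0.45) on its own and 0.85 with its pseudogene rows. Rps7 and Rpl23, which also bind the p53 ubiquitin ligase Mdm2 when free of the ribosome, had log2 fold changes of 0.82 (SE 0.34) and 0.79 (SE 0.35). None of these passed the test, with adjusted p between 0.243 and 0.331 in edgeR. With replicate 1 of both groups left out, the log2 fold changes were 0.58 for Rps10, 0.87 for Rps18, 0.33 for Rps7 and 0.28 for Rpl23.

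The 6 genes with the smallest p on the lower side were Rpl3, Rps27, Rps13, Rps29, Rpl27a and Rpl15. Their log2 fold changes lay between -1.14 (SE 0.90, Rpl3) and -0.37 (SE 0.28, Rpl15), with adjusted p between 0.497 and 0.650 in edgeR. All but Rpl15 had a mean under 100 counts. With pseudogene rows added, Rpl3 moved to 0.51, Rps13 to 0.37 and Rpl15 to 0.06, so the sign of these turned. Rpl27a had 0 counts on its 3 pseudogene rows, Rps29 had 0 such rows and those of Rps27 held 2.17 counts on average, and these 3 genes stayed negative. Only rows named after the gene were added. Stretches of Rpl27a, Rps29 and Rps27 occur at 21, 10 and 13 other places in the genome, and rows under other symbols there were not examined. With pseudogene rows added to every gene, 77 of 83 tested members had a positive value and 0 passed the test, where 82 of all genes did.

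When Rps2 was counted by its pseudogene rows alone, since its own row was at 0, the 12 rows held 1132, 1116 and 671 counts in db/db and 553, 536 and 739 in db/m. The groups overlapped as raw counts, before any scaling for the unequal library sizes. With TMM the log2 fold change of this family was 1.15 (SE 0.34, edgeR adjusted p 0.157). This family also had an unadjusted p under 0.05, as did that of Rps12 (0.86 with its 19 pseudogene rows, -0.16 on its own row). The families of Rpsa (0.76), Rpl17 (0.59) and Rpl21 (0.54) did not, and Rps18 (0.85) no longer did with its pseudogene rows added.

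Counts within the set of members were compared without any scaling by other genes. Each gene was taken as a share of the summed member counts of its library. On this scale the groups did not overlap in 20 of the 80 genes, with 5 higher in db/db (among them Rpl29, Rps18, Rps26 and Rps3) and 15 lower. Of all tested genes, 0.831% were higher and 24.0% lower without overlap on the same scale. Dividing by the members' own sum centres the members on themselves, while all other genes keep their distance to them. In edgeR with that sum as library size, the median was -0.15 over the members and -0.58 over all genes. The contrast with these shares thus repeats the distance of the medians and is no separate result. On the TMM scale 9 members were higher and 0 lower without overlap, beside 8.53% and 12.6% of all tested genes. As a share of all counts, 7 were higher and 12 lower, beside 1.08% and 25.5%. With the members' counts as library size in edgeR, 0 genes passed the test, and Rpl29 (0.79), Rpl15 (-0.96) and Rpl3 (-1.997) had an unadjusted p under 0.05, where 0.408% of all tested genes were higher and 16.6% lower at this level. The 34 genes from 1000 counts lay between -0.46 and 0.79 in that fit.

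Among the lower shares, Rpl15 had 87, 80 and 113 counts in db/db and 187, 146 and 180 in db/m, a share of 0.063%, 0.087% and 0.110% against 0.190%, 0.155% and 0.160% of the member counts. Its 4 pseudogene rows held a mean of 144 counts. Rps21 (chosen after its values were seen) had 0.062%, 0.093% and 0.104% in db/db and 0.189%, 0.156% and 0.124% in db/m.

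**Figure D5:**
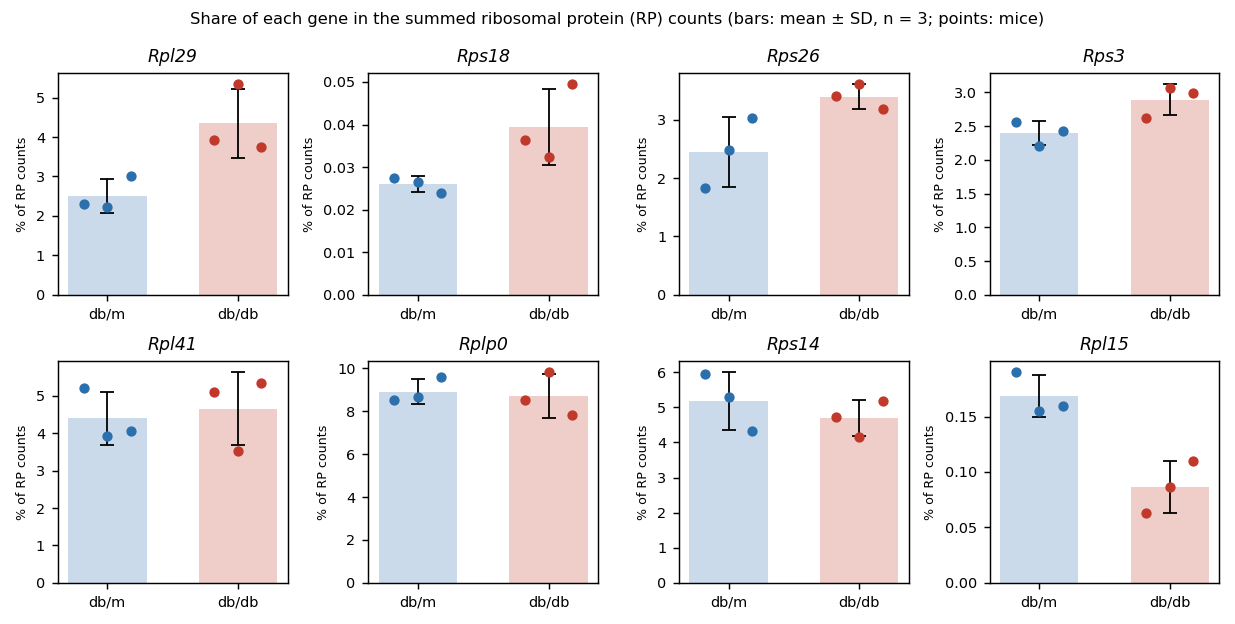
Share of 8 genes in the summed ribosomal protein counts of each mouse (%, bars show mean and SD of 3 mice, points show mice). Rpl29, Rps18, Rps26 and Rps3 have db/db points above all db/m points, Rpl15 has them below, and Rpl41, Rplp0 and Rps14 overlap.

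Paralogs of ribosomal proteins can replace the common form or act apart from it. Of the 10 paralogs and relatives, Rpl10l and Rpl39l, known from testis, were at 0 in all libraries, where a floor of 3 counts corresponds to 0.110 to 0.241 CPM, and Rpl3l, known from muscle, had at most 2 counts. Rps12l2 had 2 to 8 counts. The other 6 were tested and none passed, with log2 fold changes between -0.07 (Rpl22l1) and 0.55 (Rpl36al).

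Paralogs were also set against their partner gene in the same library, which removes the scaling. Rpl22 represses its paralog in other settings by binding its RNA. There were 13.4, 17.6 and 19.9 counts of Rpl22l1 per 100 of Rpl22 in db/db and 28.02, 24.1 and 29.4 in db/m. The groups did not overlap, with 16.9 ± 3.28 (SD, n = 3) against 27.2 ± 2.75 (SD, n = 3), and an exact permutation test cannot give less than 0.1 here. Rpl7l1 also had groups that did not overlap, with 9.39, 7.71 and 8.74 counts per 100 of Rpl7 in db/db and 10.5, 13.4 and 11.9 in db/m. The ratios of Rps27l and Rps27rt to Rps27 and of Rpl36al to Rpl36a overlapped between groups, and their partners had mean counts under 30. Of the 50-base stretches, 69.6% in Rpl22l1, 5.5% in Rpl22, 14.8% in Rpl7l1 and 77.3% in Rpl7 occur elsewhere in the genome. Whether their reads were assigned to the right row was not tested. How often the ratios of other gene pairs do not overlap was not examined. A gene on the other strand overlaps Rpl22, and the use of strand in the counting is not given. Rpl22l1 had a log2 fold change of -0.07 (SE 0.38) and Rpl22 of 0.63 (SE 0.39), so most of the difference lay in Rpl22. The log2 fold change of Rpl22l1 minus that of Rpl22 was -0.70, and it was -0.99 with length offsets, -0.51 with the acinar covariate and -0.49 with replicate 1 of both groups left out. For Rpl7l1 and Rpl7 the values were -0.45, -0.15, -0.66 and -0.60 in the same order.

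The ribosomal proteins under other symbols were in the same range. Gnb2l1, the scaffold protein Rack1 on the small-subunit head, had 360.2, 224.9 and 245.25 CPM in db/db and 106.0, 159.5 and 170.2 CPM in db/m. The groups did not overlap, and its log2 fold change was 0.93 (SE 0.31), with an adjusted p of 0.203 by edgeR and 0.033 by DESeq2. The log2 fold change of Gnb2l1 was 0.55 with replicate 1 of both groups left out. Fau, which is made as a fusion with a ubiquitin-like protein, had a log2 fold change of 0.41 (SE 0.46) at a mean of 69.5 counts. The copies Rps3a2 and Rps3a3, which are marked as pseudogenes in the table and so are no members, had 0.38 (SE 0.36) and 0.44 (SE 0.30).

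Other genes of protein synthesis were read from lists of the translation machinery. Elongation factors had a median log2 fold change of 0.41 (0 of 11 at an unadjusted p under 0.05), initiation factors of 0.34 (1 of 37), ribosome biogenesis and RNA polymerase I genes of 0.26 (3 of 54) and mitochondrial ribosomal proteins of 0.40 (7 of 74). These were all higher in db/db where p was under 0.05, and 0 members of these lists passed the test. Of all tested genes, 5.04% were higher and 9.89% lower at this level. With the acinar covariate the medians in the same order were 0.066, -0.050, -0.061 and 0.12, beside -0.04 over all genes, and with replicate 1 of both groups left out they were 0.21, 0.13, 0.087 and 0.23, beside 0.02. The elongation factor Eef2 had 786, 672 and 710 CPM in db/db and 288, 595 and 534 CPM in db/m, with a log2 fold change of 0.61 (SE 0.34), which was 0.33 with replicate 1 of both groups left out. Eef1d, a part of the exchange factor of Eef1a, had 0.41 (SE 0.24). Pabpc4, a poly(A)-binding protein, had 0.76 (SE 0.33), and Eif3l, a subunit of the initiation factor eIF3, had 0.67 (SE 0.30). The mitochondrial Mrpl12 had 0.87 (SE 0.28) and Mrps17 had 0.76 (SE 0.27). Noc2l and Nop16, both nucleolar proteins, had 0.51 (SE 0.21) and 0.69 (SE 0.29). Ribosome quality control genes had a median of 0.07 (1 of 9) and of -0.20 with the acinar covariate, and among them Zfp598, the ligase that acts on Rps10, had 0.54 (SE 0.23) and Gtpbp1 had -0.28 (SE 0.20).

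Genes that control ribosomal protein synthesis had values in both directions, with a median of 0.20 and, of 29 tested, 2 higher and 3 lower at an unadjusted p under 0.05, and 0 with an adjusted p under 0.05 in edgeR, beside the same 5.04% and 9.89% of all tested genes. With the acinar covariate their median was -0.11, and with replicate 1 of both groups left out it was 0.021. Mxd1, a repressor that competes with Myc, had 6.74, 8.73 and 8.002 CPM in db/db and 15.5, 19.0 and 14.998 CPM in db/m. The groups did not overlap, with a log2 fold change of -1.07 (SE 0.23), an adjusted p of 0.080 by edgeR and of 0.0046 by DESeq2. Pdcd4, which inhibits the initiation factor Eif4a, had 221.9, 159.7 and 152.4 CPM in db/db and 56.3, 81.1 and 97.4 CPM in db/m. Its log2 fold change was 1.19 (SE 0.29), with an adjusted p of 0.108 by edgeR and of 0.0021 by DESeq2. Mxd1 had -0.98 and Pdcd4 0.85 with replicate 1 of both groups left out.

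The members with a long pyrimidine run at the start did not stand apart upward. The 25 genes with a run of at least 8 had a median log2 fold change of 0.39 (21 positive, 4 negative), and the 37 tested genes without one of 0.54 (33 positive, 4 negative). As the members share libraries, this is a description only.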

How the data were processed

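The authors removed adaptors, N bases and reads of low quality and mapped to mm10. The table the authors deposited holds raw counts for each gene symbol, 1 column per mouse, without normalization. The study's methods name TopHat 2.0.14 and the submitters' processing notes HISAT2 2.0.4. The counter, annotation and use of strand are not given in the sources used here, so reads of 13 members overlapped by a gene on the other strand cannot be told apart from it. The number of per-sample columns without a sample was 0.

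Differences were tested with edgeR 4.0.16 in R 4.3.3, using filterByExpr, TMM factors and the quasi-likelihood F-test, and p-values were adjusted by Benjamini-Hochberg for 12760 genes (threshold 0.05). Standard errors (SE) were derived from the fold change and the F statistic. Positions, transcript lengths and sequences came from RefSeq on GRCm38.p6 (Python 3.11.15). Rps12l2 had no transcript there. Mean CPM, standard deviations and permutation tests (scipy 1.17.1) used the 6 libraries, and the spread within a group exceeded that of counting (chi-square from 26.5 to 147 for each degree of freedom). On simulated data edgeR recovered 191 of 191 changed genes with 8 false calls (12874 genes tested), and called 0 of 12958 with no change. Recovery of fold changes as small as the members' median was not tested. For libraries that stand apart, as db/db replicate 1 and db/m replicate 1 did, recovery and false calls were not tested either.

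Members and lists were chosen with earlier results of these data known. Named genes were the 5 most abundant members of each subunit, the stalk genes, the 6 with the smallest p in each direction, paralogs, untested members, Fau and Gnb2l1, and the 2 genes with the smallest p of each other list. Results of some single genes are not reported here. The alternatives were DESeq2 1.42.0, upper-quartile factors, library size alone, no filter, at least 10 counts in at least 3 libraries, leaving out genes that reach 1% of any library, transcript length offsets, the acinar score as a covariate, the replicate number as a block and leaving out each mouse. The members' counts as library size, leaving out replicate 1 of both groups and adding pseudogene rows to the gene were chosen after seeing the data.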

Additional observations from a re-analysis of the deposited data

How the results depend on the processing

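Of 756 values of named genes under the 18 alternatives, 716 kept their direction and their side of the threshold, 33 changed sign and 7 passed it. All log2 values here are distances to the median of all tested genes.

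The 79 genes called overall became 707 with DESeq2, 888 without a filter on low counts, 52 with the acinar covariate, 52 with upper-quartile factors, 21 with library size alone and 24 with the members' counts as library size, and 10 (without db/db replicate 2) to 333 (without db/m replicate 3) when 1 mouse was left out. Genes at an unadjusted p under 0.05 numbered 1905, and 2905 without a filter. With the acinar covariate 569 were higher and 796 lower at that level, and with library size alone 61 and 2379. With the members' counts as library size they were 52 and 2119, and with replicate 1 of both groups left out 769 and 773. Members called were 0, and 1 (Rpl29) with DESeq2 and 2 without a filter. Of the other lists 0 genes were called, 4 with DESeq2 and 3 without a filter. Members at an unadjusted p under 0.05 were 8, and 14 with DESeq2, 17 without a filter, 2 with the acinar covariate, 3 with library size alone, 3 with the members' counts as library size, 3 with replicate 1 of both groups left out and 2 to 22 when 1 mouse was left out. Genes of the other lists at that level were 18, and 11 with the acinar covariate, 10 with replicate 1 of both groups left out, 9 with the members' counts as library size, 29 with upper-quartile factors and 7 to 31 when 1 mouse was left out.

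Same-numbered mice did not deviate together (correlations of -0.51, -0.15 and -0.32), so the numbers do not pair the samples. With the replicate number as a block, 16 genes overall were called, 1128 had an unadjusted p under 0.05, as did 2 members and 5 genes of the other lists, 0 members were called, and the members' median was 0.45.

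The members' median of 0.52 was -0.079 with the acinar covariate, which also turned Fau (-0.37), Rpl35 (-0.017), Rpl36al (-0.079), Rpl4 (-0.0043), Rpl7l1 (-0.66), Rplp0 (-0.065), Rps19bp1 (-0.022), Rps25 (-0.12), Rps27l (-0.52), Rps27rt (-0.53), Rps3a2 (-0.30), Rps3a3 (-0.063) and Rps4x (-0.050). With replicate 1 of both groups left out, Fau (-0.28), Rpl36al (-0.0078), Rpl7l1 (-0.45), Rps27l (-0.22), Rps27rt (-0.40) and Rps3a2 (-0.082) turned. Rpl22l1 was 0.026 with library size alone and 0.0069 without a filter, Rps27rt was -0.17 with length offsets, and Rpl15, Rpl3 and Rps13 were 0.060, 0.51 and 0.37 with pseudogene rows added. The cause was not tested, apart from the pseudogene counts added. Leaving out 1 mouse gave -0.12 to 0.78 for Fau, -0.37 to 0.18 for Rpl22l1, -0.22 to 0.41 for Rpl7l1 and -0.15 to 0.60 for Rps27rt. The negative ends are the values without db/db replicate 1 for Fau, Rpl7l1 and Rps27rt, and Rpl7l1 and Rps27rt were also negative without db/m replicate 1 (-0.12 and -0.026). Rpl22l1 was positive without db/db replicate 2, db/m replicate 2 (0.054) or db/m replicate 3 (0.17). Of these 4 genes, Rpl7l1 and Rpl22l1 had mean counts of 372 and 121.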
